A study of Mus musculus with 9 samples.

Results

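The genes described here are Wee1 and other genes of cell cycle control, DNA replication and mitosis, taken from a list of names. No measured value other than brightness, which picks the probe set of a gene, enters the rule. The list was drawn up with earlier results of these data known. Of the 38 listed genes, 36 were measured among 19938 genes tested, each by the brightest probe set that carried its symbol alone. Ccnb1 and Cdkn1a were not analysed here, since no probe set carried Ccnb1 as its single symbol and the probe set of Cdkn1a also carried another symbol. Liver RNA from 9 mice was read on 1 Affymetrix array per animal, and values are RMA log2 levels, a background-corrected and normalised summary of the probes of each gene. There were 3 rescue mice, which carried the Clock-D19 mutation and had received 35 µg of a WT-Clock plasmid in the pLIVE vector at week 10 through a hydrodynamic injection into the tail vein, 3 Clock-D19 mutant mice and 3 wild-type C57BL/6J mice. All 9 ate a diet with 45% fat for 5 weeks from 10 weeks of age and were killed at zeitgeber time 10, in 12 h light and 12 h dark housing. Hydrodynamic injection places DNA mainly in hepatocytes, pLIVE is built for expression in liver, and a control injection of the other groups is not described in the labels. The labels give no strain background for the mutation and no sex.

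CLOCK pairs with BMAL1 and binds E-box sequences to drive rhythmic transcription, and the Clock-D19 form pairs but activates poorly. Wee1 encodes the kinase that phosphorylates CDK1 and so holds cells before mitosis, and it is known in mouse liver as a target of CLOCK and BMAL1. Cyclins switch on the CDKs that carry a cell through G1, S phase and mitosis, the MCM proteins form the helicase loaded at origins before S phase, and most hepatocytes of an adult liver are outside the cycle. In bulk liver, fewer cells of a type and less RNA per cell cannot be told apart.

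The liver label held against its markers, with 7 of 7 hepatocyte markers above the 95th percentile of 1027 olfactory receptor genes on all 9 arrays. That percentile, between 5.74 and 6.04 over the arrays, is used here as a level that genes silent in liver also reach, since the values carry no detection call. Of the 36 measured genes, 13 lay above it on every array, 12 on some and 11 on none. Clock itself was at 10.33, 9.41 and 9.62 in rescue, 10.88, 9.89 and 10.55 in mutant and 9.97, 9.24 and 9.30 in wild-type livers; its probe set cannot separate the mutant from the plasmid transcript, so it does not check the labels. A gene is called where the limma adjusted p, over all 19938 genes, is under 0.05. The p-values measure the spread between these animals, 3 a group, and the comparisons share groups.

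Wee1 was the member that differed most in each of the 3 comparisons, and it was called in both that involve the mutant. Its level was 6.17, 6.02 and 6.38 in rescue livers, 4.53, 4.98 and 4.79 in mutant livers and 5.47, 6.12 and 5.33 in wild-type livers. Every mutant array lay below every rescue and every wild-type array, while the rescue and wild-type ranges overlapped through wild-type replicate 2. Mutant livers fell by 0.87 ± 0.18 (SE) on the log2 scale relative to wild type (adjusted p = 0.00481), and rescue livers were 1.42 ± 0.18 higher than mutant livers, a 2.68-fold difference (adjusted p = 0.00113). Rescue minus wild type was 0.55 ± 0.18 (adjusted p = 0.145, 95% interval 0.17 to 0.93 before adjustment), and without wild-type replicate 2 it was 0.79 (adjusted p = 0.0142).

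Wee1 was a dim signal. It passed the olfactory percentile on 2 of 3 rescue, 0 of 3 mutant and 1 of 3 wild-type arrays, and RMA compresses differences at that level, so both measured changes may understate the true ones. Among all genes its rescue against mutant difference had the 21st smallest p, and its mutant against wild-type difference the 944th smallest. Of other genes that CLOCK and BMAL1 activate, picked here after their values were seen, Nr1d1 was 1.29 ± 0.26 higher in rescue than in mutant (adjusted p = 0.0167) and Dbp was 0.12 ± 0.14 (adjusted p = 0.648).

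**Figure D1:**
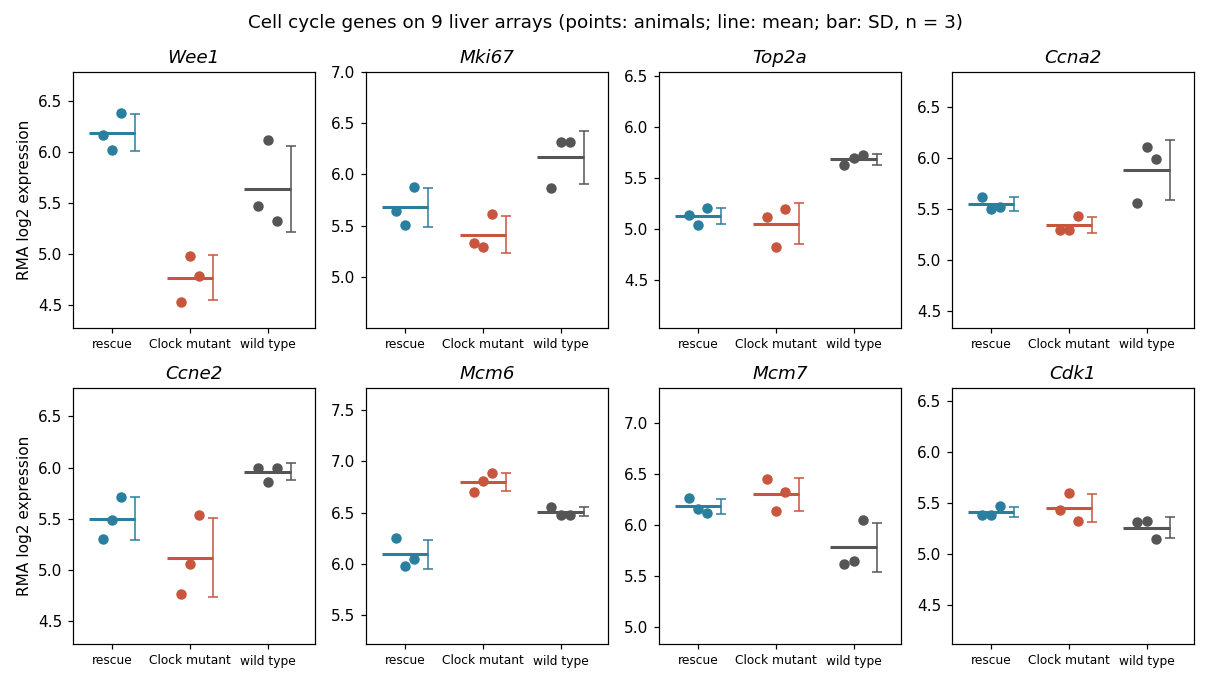
Per-array RMA log2 levels (y axis, the same span in each panel) of Wee1, the 6 other genes called in any comparison, and Cdk1, in rescue, Clock mutant and wild-type livers; points are animals, lines are means and bars are SD (n = 3). Wee1 sits at 6.02 to 6.38 in rescue, 4.53 to 4.98 in mutant and 5.33 to 6.12 in wild type, and Mki67 at 5.51 to 5.88 in rescue, 5.29 to 5.61 in mutant and 5.87 to 6.32 in wild type.

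Cdk1, the kinase that WEE1 restrains, was not called in any comparison. Its level was 5.38, 5.38 and 5.47 in rescue, 5.43, 5.60 and 5.32 in mutant and 5.31, 5.32 and 5.15 in wild type. Rescue and mutant arrays lay at or above the highest wild-type array. Mutant minus wild type was 0.19 ± 0.11 (adjusted p = 0.236, 95% interval -0.04 to 0.42), and rescue minus mutant was -0.04 ± 0.11 (interval -0.27 to 0.19). Every Cdk1 value lay under the olfactory percentile, so a change could have been missed. CDC25 phosphatases undo WEE1's mark, and neither Cdc25a nor Cdc25b was called. Cdc25a was at 5.86, 5.85 and 5.79 in rescue, 5.57, 5.98 and 5.84 in mutant and 5.72, 5.85 and 6.02 in wild type, with overlapping groups. Cdc25b was at 5.92, 5.89 and 6.09 in rescue, 5.89, 6.07 and 6.16 in mutant and 6.10, 6.18 and 6.00 in wild type, again overlapping. Pkmyt1, the related kinase that also inhibits CDK1, differed by 0.17 between mutant and wild type (adjusted p = 0.301).

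Across the 36 genes, the mutant livers held 6 that differed from wild type, of which 5 fell and 1 rose. That is 16.7%, against 15.4% of all genes tested. So the members' share in either direction lay near the background. By direction, 5 of 36 members fell, beside 9.02% of all genes, and 1 of 36 rose, beside 6.37%. The split by direction was not tested. With each array centred on its median, 1 member rose and 6 fell, against 610 rises and 2272 falls over all genes; with quantile normalization repeated, 2 members rose and 5 fell. The median difference of the members was 0.00, and of all genes 0.07. The 5 that fell were Wee1, the cyclins Ccna2 and Ccne2, the proliferation antigen Mki67 and the topoisomerase Top2a, and the 1 that rose was the helicase subunit Mcm7. All 5 that fell were among the dimmest 40% of genes, as were 17 of the 36 members. The 30 members not called had differences between -0.29 and 0.37, and the 95% interval of all 30 lay within 1 log2 unit of 0 and that of 22 within 0.5.

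Rescue livers differed from mutant livers in 2 of the 36 genes, Wee1, which rose, and the helicase subunit Mcm6, which fell. That is 5.56%, against 3.81% of all genes (2.61% rose and 1.2% fell). The 34 other members ranged from -0.40 to 0.38. Against wild type, rescue livers differed in 1 gene, Top2a, which was lower (2.78%, against 2.28% of all genes, of which 0.928% rose and 1.35% fell). For Ccna2, Ccne2, Mki67 and Top2a, which fell in the mutant with Wee1, rescue minus mutant was 0.08 to 0.38 (adjusted p = 0.207 to 0.707), so a return toward wild type was not called for them.

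**Figure D2:**
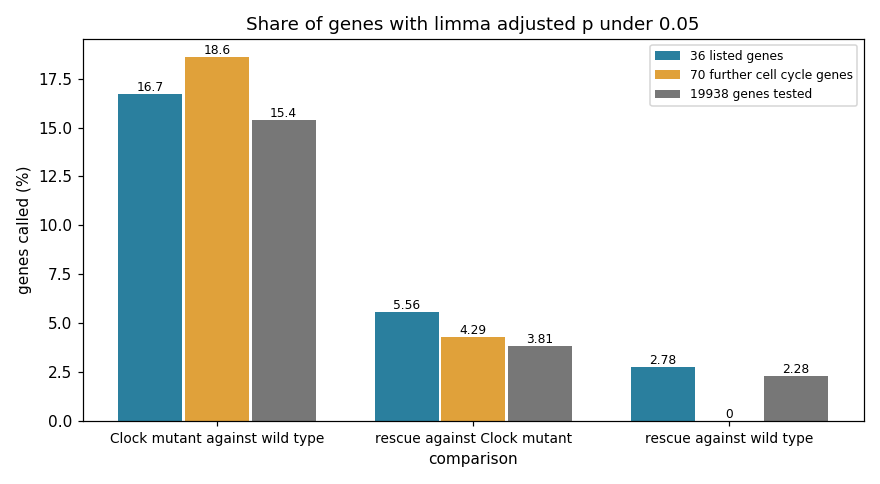
Share of genes called (y axis, percent, limma adjusted p under 0.05) in each comparison for the 36 measured genes, 70 further cell cycle genes and all 19938 genes. The listed genes stand at 16.7%, 5.56% and 2.78%, against 15.4%, 3.81% and 2.28% of all genes.

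**Figure D3:**
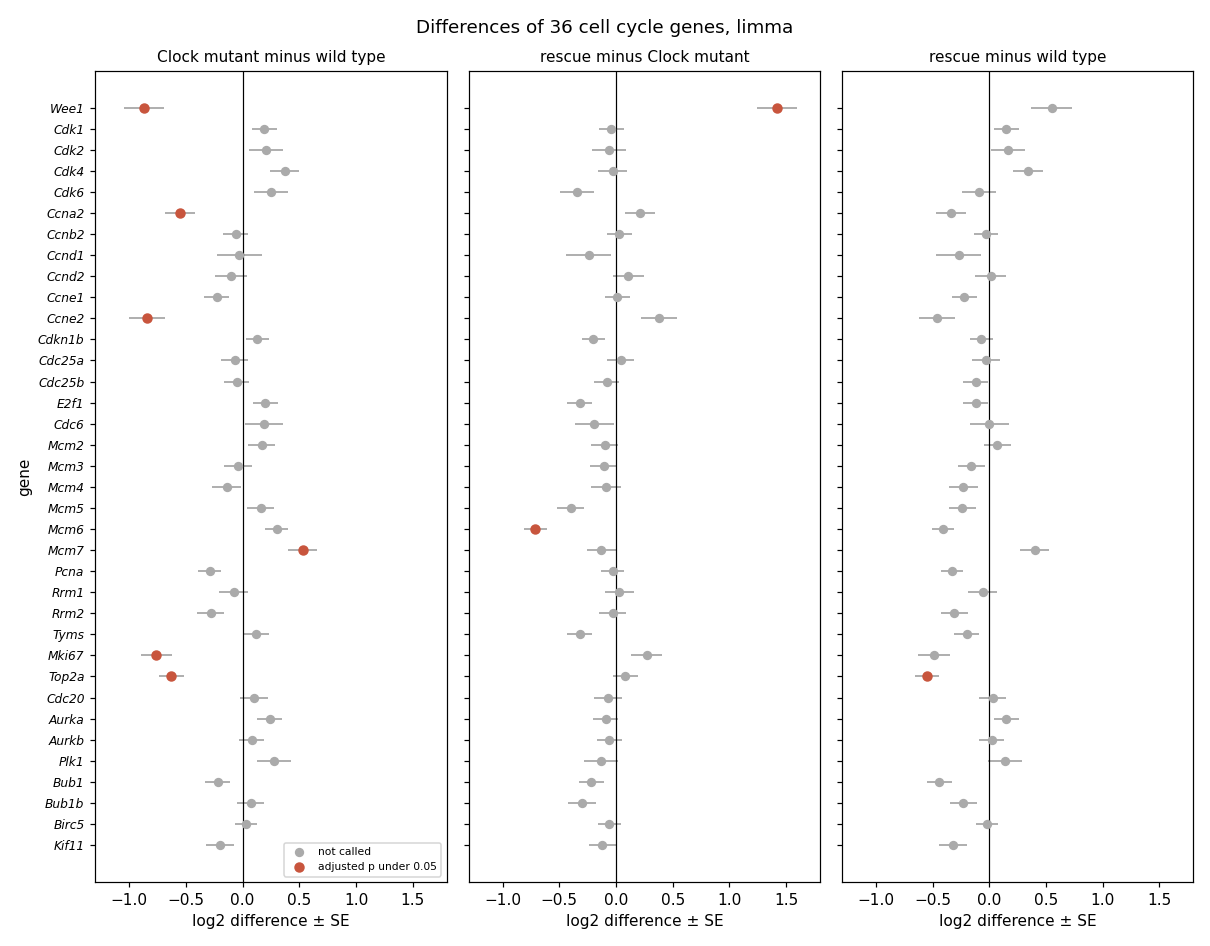
Log2 differences with SE (x axis) of the 36 genes (rows, ordered by role) for mutant minus wild type, rescue minus mutant and rescue minus wild type; red points are called. Wee1 is at -0.87, 1.42 and 0.55, and most other genes lie within 0.5 of 0.

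Among the cyclins and CDKs, only Ccne2 and Ccna2 were called, both in mutant against wild type, of 10 measured. Ccne2, a cyclin that drives entry into S phase with CDK2, was at 5.30, 5.49 and 5.71 in rescue, 4.76, 5.06 and 5.54 in mutant and 6.00, 5.86 and 6.00 in wild type. All mutant and all rescue arrays lay below all wild-type arrays, and rescue and mutant overlapped. It fell by 0.84 ± 0.16 in mutant relative to wild type (adjusted p = 0.00375), and rescue minus mutant was 0.38 ± 0.16 (adjusted p = 0.207). Ccne1, the other E-type cyclin, was at -0.23 ± 0.11 in the mutant comparison (adjusted p = 0.167). Ccna2, the cyclin of S phase and G2, was at 5.62, 5.50 and 5.52 in rescue, 5.29, 5.29 and 5.43 in mutant and 5.56, 6.11 and 5.99 in wild type. The mutant arrays were the lowest of the 9, and Ccna2 fell by 0.55 ± 0.13 (adjusted p = 0.012). Leaving out wild-type replicate 2 (-0.44, adjusted p = 0.0535) or 3 (-0.49, adjusted p = 0.0563) ended that call.

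Cdk2, Cdk4, Cdk6, Ccnd1 and Ccnd2 lay above the olfactory percentile on every array and were not called. Cdk4, which starts G1 progression with D cyclins, had a mutant minus wild-type difference of 0.37 ± 0.13 (adjusted p = 0.069), and was called in 4 of 18 alternatives, among them leaving out wild-type replicate 1 (0.51, adjusted p = 0.0181). Cdk6 was at 0.25 ± 0.15 and Cdk2 at 0.21 ± 0.15 in the same comparison. Ccnd1 was at -0.03 ± 0.20, with 1 wild-type array, at 7.87, above all others. Ccnd2 was at -0.10 ± 0.14, and Ccnb2, a mitotic cyclin, at -0.06 ± 0.11. The CDK inhibitor gene Cdkn1b was at 0.13 ± 0.10, and E2f1, which activates S phase genes, at 0.20 ± 0.11. In rescue against mutant, E2f1 was at -0.32 ± 0.11 (adjusted p = 0.112) and Cdkn1b at -0.20 ± 0.10 (adjusted p = 0.293), with all rescue arrays below all mutant arrays for both. Such a gap is common, since the rescue range lay wholly below the mutant range for 14% of all genes and for 6 of the 36 members. Between mutant and wild type, 35.7% of all genes had ranges that did not overlap, and between rescue and wild type 19.5%. A second Cdkn1b probe set ran the other way there, averaging 6.63 in rescue and 6.46 in mutant.

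Of the 8 replication genes, Mcm6 and Mcm7 were called, in different comparisons. Mcm6 was at 6.25, 5.98 and 6.05 in rescue, 6.70, 6.81 and 6.89 in mutant and 6.55, 6.48 and 6.48 in wild type. The groups did not overlap, with rescue lowest and mutant highest. Rescue livers fell by 0.71 ± 0.10 relative to mutant (adjusted p = 0.00424). Mutant minus wild type was 0.30 ± 0.10 (adjusted p = 0.0712) and rescue minus wild type -0.41 ± 0.10 (adjusted p = 0.0561; called in 5 of 18 alternatives, 1 of them without rescue replicate 1, -0.49, adjusted p = 0.0483). Mcm7 was at 6.26, 6.15 and 6.12 in rescue, 6.45, 6.14 and 6.32 in mutant and 5.62, 5.65 and 6.05 in wild type. All mutant and all rescue arrays exceeded all wild-type arrays, and Mcm7 rose by 0.53 ± 0.13 in mutant relative to wild type (adjusted p = 0.013). It was no longer called without Clock mutant replicate 1 (0.45, adjusted p = 0.0594), without wild-type replicate 1 (0.45, adjusted p = 0.0571) or 2 (0.47, adjusted p = 0.0506), and with the trend on gene span removed (0.42, adjusted p = 0.0559). Both subunits belong to the same helicase, and rescue minus mutant was -0.71 for Mcm6 and -0.13 ± 0.13 for Mcm7; the difference between the genes was not tested.

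The 250 bases before the start site of the helicase genes are shown because these are the replication members that were called; they were chosen after their values were seen. They come from RefSeq on GRCm38.p6, minus strand, Mcm6 at chr1:128359706-128359955 and Mcm7 at chr5:138171884-138172133 (1 of 2 start sites in the table). Each is written 5′ to 3′ and ends at the base before the start; capitals mark E2F sites (TTTGGCGC or TTTCCCGC) and CCAAT boxes (CCAAT), on either strand.
Mcm6: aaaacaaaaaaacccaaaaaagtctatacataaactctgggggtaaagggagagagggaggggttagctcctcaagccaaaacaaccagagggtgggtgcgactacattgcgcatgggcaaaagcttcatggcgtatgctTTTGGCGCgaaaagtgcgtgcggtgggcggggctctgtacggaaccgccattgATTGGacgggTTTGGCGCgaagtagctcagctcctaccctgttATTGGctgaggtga
Mcm7: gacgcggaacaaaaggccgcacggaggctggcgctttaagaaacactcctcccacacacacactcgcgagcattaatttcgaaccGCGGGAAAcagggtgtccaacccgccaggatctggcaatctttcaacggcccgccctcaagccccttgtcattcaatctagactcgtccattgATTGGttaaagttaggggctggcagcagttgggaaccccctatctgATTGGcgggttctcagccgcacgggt
Mcm6 held 2 E2F sites and 2 CCAAT boxes, and Mcm7 held 1 and 2, none overlapping. The promoter of the other Mcm7 start site held 0 E2F sites and 1 CCAAT box, so Mcm7 counts as a holder below through the start site shown. An E2F site of this spelling was found in 6 of the 31 listed genes that had a promoter in the table (Cdc25a, Cdc6, Cdk2, Mcm5, Mcm6 and Mcm7), and in 1.3% of 32851 promoters of all genes. In rescue against mutant, Mcm6 fell and the other 5 were not called, with Mcm5 at -0.40 ± 0.12, Cdc6 at -0.19 ± 0.17, Mcm7 at -0.13 ± 0.13, Cdk2 at -0.06 ± 0.15 and Cdc25a at 0.04 ± 0.12.

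Mcm5, another helicase subunit, was not called but lay lower on all rescue than on all mutant arrays, at -0.40 ± 0.12 (adjusted p = 0.0743). Mcm2, Mcm3 and Mcm4 had differences between -0.14 and 0.17 in mutant against wild type and between -0.11 and -0.09 in rescue against mutant. Cdc6, which loads the helicase, was at 0.19 ± 0.17 and lay under the olfactory percentile on every array. Pcna, the sliding clamp of DNA polymerase, was at 9.72, 9.62 and 9.50 in rescue, 9.68, 9.59 and 9.67 in mutant and 9.92, 9.92 and 9.98 in wild type. All rescue and all mutant arrays lay below all wild-type arrays, and the differences were -0.33 ± 0.10 for rescue (adjusted p = 0.116) and -0.29 ± 0.10 for mutant (adjusted p = 0.0601), both relative to wild type. The mutant difference was called in 4 of 18 alternatives. It was called with each array centred on its median (-0.37, adjusted p = 0.03) and with the trend on gene span removed (-0.42, adjusted p = 0.0153). Leaving out the dimmest 40% of genes (-0.29, adjusted p = 0.0292) and a trended and robust prior (-0.29, adjusted p = 0.0298) also gave the call. A second Pcna probe set had the same group means to 2 decimals, so the array may read a near-identical copy of the gene. In nucleotide supply, the ribonucleotide reductase subunit Rrm2 was at -0.28 ± 0.12 in mutant against wild type (adjusted p = 0.14; -0.40 and 0.0475 with the trend on gene span removed), the other subunit Rrm1 at -0.08 ± 0.13, and thymidylate synthase Tyms at 0.12 ± 0.11. Tyms was lower on all rescue than on all mutant arrays (-0.32 ± 0.11, adjusted p = 0.113).

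Among the 10 mitotic genes, Mki67 and Top2a fell in the mutant. Mki67, the antigen used to mark cycling cells, was at 5.64, 5.51 and 5.88 in rescue, 5.33, 5.29 and 5.61 in mutant and 5.87, 6.32 and 6.32 in wild type. Every mutant array lay below every wild-type array, and the rescue range overlapped both. It fell by 0.76 ± 0.14 in mutant relative to wild type (adjusted p = 0.00295); rescue minus mutant was 0.27 ± 0.14 (adjusted p = 0.303) and rescue minus wild type -0.49 ± 0.14 (adjusted p = 0.1; called without wild-type replicate 1, -0.64, adjusted p = 0.0427). Top2a, which untangles DNA before chromosomes part, was at 5.14, 5.04 and 5.21 in rescue, 5.12, 4.82 and 5.20 in mutant and 5.63, 5.69 and 5.72 in wild type. Rescue and mutant overlapped and both lay below every wild-type array, and all 9 values lay under the olfactory percentile. Top2a fell by 0.63 ± 0.11 in mutant relative to wild type (adjusted p = 0.00217) and by 0.55 ± 0.11 in rescue relative to wild type (adjusted p = 0.0197), with 0.08 ± 0.11 between rescue and mutant. The rescue call against wild type was lost without rescue replicate 1 (adjusted p = 0.0574) or 2 (0.0793), without any 1 of the 3 wild-type arrays (0.0523 to 0.0829), and when its second, dimmer probe set was averaged in (-0.24, adjusted p = 0.408). That dimmer probe set averaged 3.41 in rescue, 3.02 in mutant and 3.33 in wild type, so it did not place rescue below wild type.

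Their promoters are shown as those of the mitotic members that fell, in the same form, on the minus strand of GRCm38.p6, with Top2a at chr11:99024190-99024439 and Mki67 at chr7:135716380-135716629. Capitals mark CCAAT boxes and the cell cycle homology region (TTTGAA), on either strand.
Top2a: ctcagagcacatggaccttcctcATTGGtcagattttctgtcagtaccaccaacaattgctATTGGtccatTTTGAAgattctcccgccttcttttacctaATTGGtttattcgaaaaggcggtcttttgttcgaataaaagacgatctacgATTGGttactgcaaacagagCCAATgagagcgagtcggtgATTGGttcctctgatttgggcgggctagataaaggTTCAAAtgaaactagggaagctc
Mki67: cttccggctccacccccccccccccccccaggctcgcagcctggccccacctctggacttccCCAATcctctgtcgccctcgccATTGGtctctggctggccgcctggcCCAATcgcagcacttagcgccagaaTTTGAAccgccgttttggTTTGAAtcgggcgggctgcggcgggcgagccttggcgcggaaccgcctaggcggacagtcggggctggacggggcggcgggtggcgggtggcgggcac
Top2a held 6 CCAAT boxes and 2 homology regions, and Mki67 held 3 and 2. These elements are known from promoters that peak in G2 and mitosis. CCAAT was found in 23 of the 31 listed genes with a promoter and in 33.8% of all promoters, and TTTGAA in 7 of 31 (Ccnb2, Cdc20, Cdk1, Kif11, Mcm2, Mki67 and Top2a) and in 16% of all. The other 5 holders of TTTGAA were not called in any comparison. The E-box CACGTG was found in 3 of 31, Cdk4, Cdk6 and Tyms, and in 6.02% of all promoters. The D-box TTATGTAA was in none of the 31 and in 0.819% of all. Aurkb, Ccna2, Ccnd1, Ccnd2, Ccne2, Mcm4 and Wee1 were without an entry.

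The other 8 mitotic genes were not called. In mutant against wild type, the mitotic kinases Aurka (0.24 ± 0.11), Plk1 (0.28 ± 0.15) and Aurkb (0.08 ± 0.11) had differences above 0, as did Cdc20 (0.10 ± 0.12), which activates the anaphase-promoting complex, the checkpoint kinase Bub1b (0.07 ± 0.12) and Birc5 (0.03 ± 0.10), which encodes survivin. The spindle motor Kif11 was at -0.20 ± 0.12 and the checkpoint kinase Bub1 at -0.22 ± 0.11. Of these 8, Aurka was the only one above the olfactory percentile on every array. Against wild type, Bub1 was at -0.44 ± 0.11 in rescue livers (adjusted p = 0.0567) and was called in 5 of 17 alternatives, with the replicate block (-0.44, adjusted p = 0.0495), repeated quantile normalization (-0.51, 0.0187), median centring (-0.46, 0.0491), array weights (-0.41, 0.0482) and without wild-type replicate 1 (-0.54, 0.0371). It lay under the olfactory percentile throughout.

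**Figure D4:**
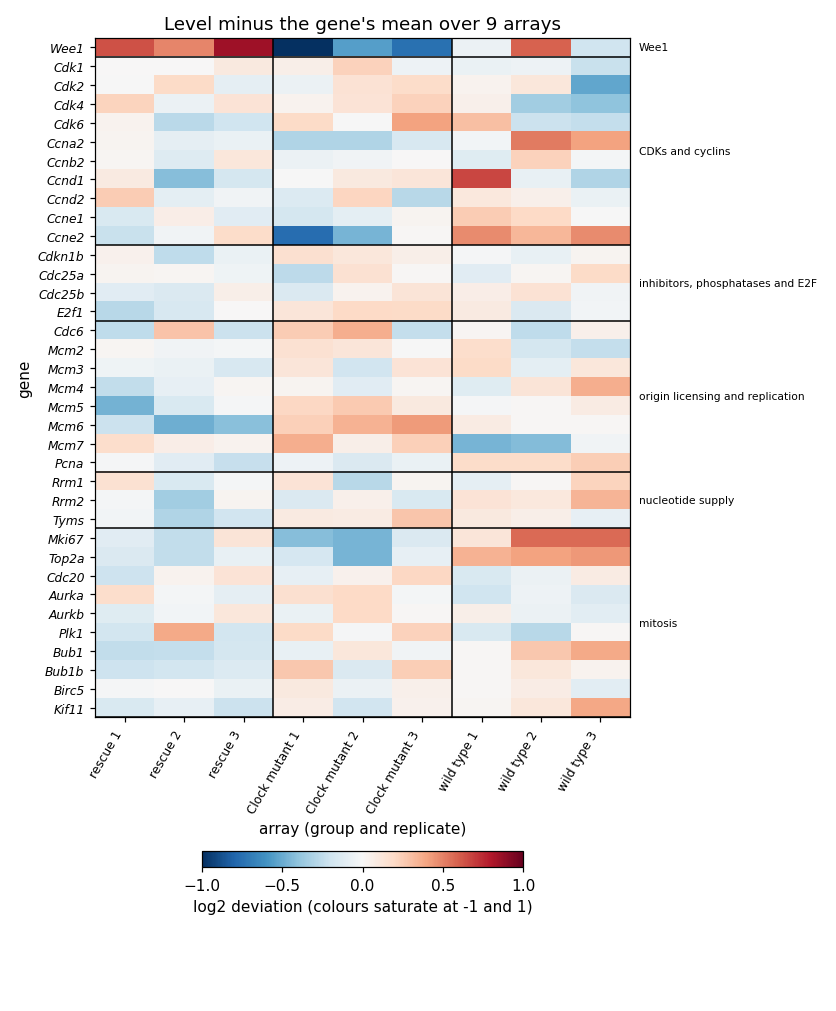
Level of each of 36 genes (rows, by role) on each array (columns: rescue, Clock mutant, wild type), as the log2 deviation from that gene's mean over 9 arrays. Wee1 runs from 0.49 to 0.84 in rescue and is at -0.56 or lower in mutant, while the other rows are mostly pale.

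Averages over genes differed little between arrays. The mean deviation of the 35 genes other than Wee1 was -0.06, -0.10 and -0.06 in rescue livers, 0.00, 0.01 and 0.06 in mutant livers and 0.06, 0.04 and 0.05 in wild-type livers. The 8 replication genes averaged -0.13, -0.07 and -0.13 in rescue, 0.16, 0.09 and 0.08 in mutant and 0.01, -0.08 and 0.08 in wild type, so the mutant arrays stood above the rescue arrays. The 10 mitotic genes averaged -0.12, -0.06 and -0.06 in rescue, 0.00, -0.08 and 0.05 in mutant and 0.01, 0.11 and 0.15 in wild type. The within-group SD of single members ranged from 0.03 to 0.51 with a median of 0.14.

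A wider list of 72 other cell cycle genes, 70 of them measured, was read in the same fit. In mutant against wild type 11 fell and 2 rose, which is 18.6% against 15.4% of all genes (9.02% fell and 6.37% rose). Without Clock mutant replicate 1, 6 of the 70 fell and 0 rose, against 1342 falls and 693 rises over all genes. Without wild-type replicate 3, 7 fell and 0 rose, against 1162 falls and 533 rises over all genes. With arrays centred on their median, 13 fell and 0 rose, against 2272 falls and 610 rises over all genes. With the dimmest 40% of genes left out, 9 of 36 fell and 2 rose, against 1946 falls and 1423 rises over 11963 genes. Among 14 genes of G1 control and E2F, 4 fell (28.6%): the retinoblastoma gene Rb1 by 0.85 ± 0.12 (adjusted p = 0.000371), its relative Rbl2 by 0.65 ± 0.10 (adjusted p = 0.00092), E2f3 by 0.58 ± 0.11 (adjusted p = 0.00241) and Myc by 1.41 ± 0.40 (adjusted p = 0.0273). E2f3 was at -0.11 when its 2 probe sets were averaged (adjusted p = 0.509), and Myc was not called with a trended and robust prior (adjusted p = 0.164) or without mutant replicate 1 or 2 or wild-type replicate 2 or 3 (adjusted p = 0.0824 to 0.131). Myc values were 7.84, 8.84 and 8.26 in rescue, 7.29, 7.50 and 8.59 in mutant and 8.15, 9.53 and 9.94 in wild type, with overlapping groups.

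Among 10 genes of the G2 checkpoint and DNA damage response, 4 fell (40%), beside 9.02% of all genes. No test of these roles against other genes was made. The kinase genes Atr and Atm, which sense DNA damage, fell by 0.72 ± 0.12 (adjusted p = 0.00155) and 0.44 ± 0.11 (adjusted p = 0.0191; lost without mutant replicate 1 or 2 or wild-type replicate 1 or 3, adjusted p = 0.052 to 0.0734). The p53 targets Ccng1 and Gadd45a fell by 0.53 ± 0.10 (adjusted p = 0.00235) and 0.72 ± 0.17 (adjusted p = 0.0108; 0.0527 without mutant replicate 1). Chek1, the kinase that relays ATR signals to CDC25 and WEE1, was at 0.01 (adjusted p = 0.968). It lay under the olfactory percentile on every array, so a change could have been missed. Among 17 replication genes the primase subunit Prim1 fell by 0.59 ± 0.15 (adjusted p = 0.0182; lost without wild-type replicate 1 or 3, at 0.0524 and 0.0626) and Rpa2, of the single-strand binding complex, rose by 0.40 ± 0.13 (adjusted p = 0.0453; lost in 12 of 18 alternatives). Among 29 mitotic genes the kinetochore motor Cenpe fell by 0.47 ± 0.11 (adjusted p = 0.0115, and 0.0584 without mutant replicate 1). Kif23 fell by 0.35 ± 0.11 (adjusted p = 0.0424, lost in 9 of 17 alternatives). Both lay under the olfactory percentile on every array. Cks2, a CDK subunit, rose by 0.36 ± 0.11 (adjusted p = 0.0374, lost in 9 of 18 alternatives, and 0.28 with arrays centred).

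Long genes fell more often in the mutant livers. With all genes split into 5 equal groups by span, 17% fell and 3.68% rose in the longest group, and 1.69% fell and 8.31% rose in the shortest. Of the 8 wider list genes in the longest group, Atm, Atr, Cenpe, E2f3 and Rb1 fell. With the trend on span removed, Atr was at -0.66, Rb1 at -0.80 and E2f3 at -0.52, and each was still called. Wee1 (-0.91), Mki67 (-0.78) and Top2a (-0.63) were called there too.

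In rescue against mutant, 3 of the 70 rose and none fell by limma, which is 4.29% against 3.81% of all genes (2.61% rose and 1.2% fell): Gadd45a by 0.70 ± 0.17 (adjusted p = 0.0373), Rb1 by 0.59 ± 0.12 (adjusted p = 0.0167) and Prc1, which bundles spindle midzone microtubules, by 0.40 ± 0.10 (adjusted p = 0.0498). Each call was lost when single arrays were left out, Prc1 in 12 of 17 alternatives, Gadd45a without any 1 of the rescue arrays or mutant replicate 1 or 2 (adjusted p = 0.0708 to 0.128), and Rb1 without mutant replicate 2 (0.052) or rescue replicate 2 (0.0574). Prc1 also lay under the olfactory percentile on every array. Leaving out 1 array gave 0 to 2 calls, with 0 without mutant replicate 2 or rescue replicate 2 and 1 without mutant replicate 1, rescue replicate 1 or rescue replicate 3. Against wild type no gene of the 70 was called in rescue livers by limma, beside 2.28% of all genes. Of the 70, 9 had an unadjusted limma p under 0.05, and the share of all genes at that level was not counted.

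Several markers of Kupffer, endothelial and stellate cells fell in the mutant livers, while no neutrophil or bile duct marker was called. Over all genes, 9.02% fell in mutant against wild type and 1.35% were lower in rescue than in wild type. Of 10 Kupffer cell and macrophage markers, 7 fell in mutant against wild type and 5 were lower in rescue than in wild type. Their mean level was 6.94 to 7.26 in rescue, 6.79 to 6.99 in mutant and 7.56 to 8.06 in wild type, and none was under the olfactory percentile on all arrays. Of 10 endothelial markers 5 fell in the mutant (mean level 7.65 to 7.94 in rescue, 7.44 to 7.53 in mutant and 7.94 to 8.05 in wild type), and of 5 stellate markers 3 fell (7.67 to 7.71 in rescue, 7.36 to 7.46 in mutant and 7.67 to 7.91 in wild type; Des was under the olfactory percentile on all arrays). Of 7 lymphocyte markers 1 fell, Cd3g (-0.66, adjusted p = 0.0104). Cd3g itself was under the olfactory percentile on all arrays, as were Cd4, Cd79a, Ms4a1 and Nkg7. In the same comparison 0 of 5 neutrophil and 0 of 4 bile duct markers were called, and 1 of 2 red cell precursor markers fell. Of the neutrophil markers 4, and of the bile duct markers 2, were under the olfactory percentile on all arrays. In rescue against mutant, where 2.61% of all genes rose, 3 of 5 stellate markers rose (Lrat by 0.62, Rgs5 by 0.57 and Dcn by 0.38). So did 2 of 10 endothelial markers (Mrc1 by 0.50 and Kdr by 0.45) and 1 of 10 Kupffer cell markers (Vsig4 by 1.10), while Mki67 (0.27) and Top2a (0.08) were not called there. Hepatocyte markers averaged 11.62 to 11.89 in rescue, 11.85 to 11.95 in mutant and 11.56 to 11.78 in wild type. Of these 7 markers 1 was called in mutant against wild type, Asgr1, which rose by 0.76 (adjusted p = 0.00271). The part of these cells in the levels of Mki67, Top2a, Ccna2 and Ccne2 was not tested.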

How the data were processed

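Liver RNA of 9 mice was measured on Affymetrix arrays. The deposited values are log2 expression per probe set, made with RMA in Affymetrix Expression Console per the submitters' processing notes. RMA normalises probe intensities to 1 distribution and compresses dim differences. The deposited values still differed between arrays, with medians over genes from 6.12 to 6.27. The lowest value was -0.46 to 0.11 on wild-type arrays and 1.35 to 1.46 on mutant and rescue arrays. The highest value, 13.86, fits a log2 scale. Of 35556 probe sets, 21789 carried 1 symbol, 1621 several and 12146 none in GEO's platform annotation; the brightest probe set per symbol left 19938 genes. All arrays were fitted in 1 model with limma 3.58.1 in R 4.3.3 (6 residual and 8.475 prior degrees of freedom), with Benjamini-Hochberg adjustment over all genes in each comparison. Precision is limited by the number of arrays. The model was tested on simulated data. Differences are log2 with the model's SE, and intervals are 95% from the moderated t distribution.

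The members and lists were chosen with earlier results of these data known. Per-array values were given for called members, Wee1, Cdk1, Cdc25a and Cdc25b by rule, and for Clock, Myc and Pcna outside it, after their values were seen; up to 3 called genes per role and direction of smallest p were named from the wider list, with Atm and Myc added after their values were seen. Same-numbered arrays of different groups had deviations that correlated between -0.11 and 0.19, and differently numbered arrays between -0.26 and 0.18. The labels do not say what the numbers pair, so the main model left them out and the replicate block was an alternative. With the block, 3368, 931 and 507 genes were called in the 3 comparisons, against 3068, 759 and 454 without it. Promoters are the 250 bases before the start in a RefSeq table (GRCm38.p6), which held 31 of the 38 genes. Alternatives were the replicate block, a filter on the dimmest 40%, repeated quantile normalization, median centring, a trended and robust prior, array weights, 6 arrays alone, averaged probe sets, the span trend removed (loess on log span) and leaving out each array.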

Additional observations from a re-analysis of the deposited data

How the results depend on the processing

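Of 108 results (36 genes in 3 comparisons), 9 were called, and 6 of these kept their call and direction under every alternative in which they were tested: Wee1 in both comparisons with the mutant (-1.03 to -0.63 against wild type, and 1.31 to 1.53 for rescue), Mki67, Top2a and Ccne2 in mutant against wild type, and Mcm6 in rescue against mutant. Wee1, Mki67, Top2a, Ccna2 and Ccne2 were not tested without the dimmest 40% of genes, since they belong to it. Of the other results, 90 were never called and 9 were called in at least 1 alternative. No called result turned its sign; directions of uncalled results were not compared. The 6 calls in mutant against wild type ranged from 4 to 8 over the other settings and from 4 to 6 with 1 array left out. With the dimmest 40% left out, 3 rose and 1 fell of the 19 members that remained, against 1423 rises and 1946 falls over 11963 genes. In rescue against mutant the 2 calls were 1 of 19 without the dimmest genes (against 1178 of 11963 over all genes) and 2 with any array left out. In rescue against wild type the 1 call was 2 with the replicate block, with median centring and with a trended prior, 3 with repeated quantile normalization, 4 with array weights and 0 with averaged probe sets, and 0 to 2 with 1 array left out (0 without rescue replicate 2 or wild-type replicate 3, 2 without wild-type replicate 1, and Wee1 alone without wild-type replicate 2). For the wider list, 13 calls in mutant against wild type were 6 to 12 with 1 array left out, the 3 in rescue against mutant were 5 with array weights and 0 to 2 with 1 array left out, and the 0 in rescue against wild type were 2 without the dimmest genes and 2 with a trended prior (0 to 0 with 1 array left out). Over all genes, the 3068 calls in mutant against wild type fell to 1695 at the lowest, the 759 in rescue against mutant ranged from 200 to 1334, and the 454 in rescue against wild type from 233 to 711. The replicate block gave 6, 2 and 2 calls among the members in the 3 comparisons. The cause of these shifts was not tested. Signal limits what could be seen, since 11 of the 36 genes never passed the olfactory percentile.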
